A study of Arabidopsis thaliana with 12 samples.

Results

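Transcript signals of 27 genes that act in cell wall expansion were followed in flowers of 10 accessions of Arabidopsis thaliana. A gene was taken when its symbol in the gene annotation of the array began with EXPA, EXPB, EXLA, XTH, PME, AGP or FLA followed by a digit, and each locus was counted once. This rule was met by 27 of the 13436 probe sets with a single locus to their name. They comprised 10 α-expansins (EXPA), 4 β-expansins (EXPB), 3 expansin-like A genes (EXLA), 9 xyloglucan endotransglucosylase/hydrolases (XTH) and PME61, a pectin methylesterase. A further 2 probe sets that carry the names of several expansins were left out, and no arabinogalactan protein (AGP) or fasciclin-like (FLA) gene was named by the table, so these families were not analysed here. Every gene had 1 probe set, and 0 of the 27 were marked as matching several transcripts.

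Plant cells enlarge when turgor stretches a wall that yields. Expansins loosen the bonds between cellulose and the surrounding polysaccharides without cutting them, XTH enzymes cut and rejoin xyloglucan chains, and pectin methylesterases remove methyl groups from pectin and so change its stiffness. In flowers these activities serve the growth of petals, filaments and styles and the elongation of pollen tubes.

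RNA of flowers was hybridized to ATH1 arrays, whose probes were designed on the Col-0 sequence. The study compared 5 accessions that accumulate saiginols, phenylacylated flavonol glycosides of flowers (C24, Cvi, Da, Rsch and RLD, called producers below), with 5 that do not (Col-0, Ler, Ws, Sap and Stw, non-producers). The study lists all of them, Ler included, as accessions, and the labels name no treatment. Col-0 and C24 had 2 arrays each, described in the methods as duplicate hybridizations, and the other 8 accessions had 1 array each, so the spread within an accession is known for Col-0 and C24 only and may be technical. The ecotype field disagreed with the title for 2 arrays, since it reads RLD for the one titled Sap and Sap-0 for the one titled Stw. Titles were followed, and the main counts and the differences between producers and non-producers named below are also given without both arrays. Whether sequence differences between an accession and the probes moved a signal was not tested.

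Deposited values are linear signal intensities, scaled so that the trimmed mean of each array is about 100.0. Array medians lay between 46.0 and 51.1. The 27 probe sets for control transcripts of Bacillus, called bacterial controls here, reached at most 16.6. This level served as a yardstick for dim genes, and control probe sets of other bacteria were not used. Intensity depends on the probes as well as on the transcript, so signals were compared between accessions and not between genes. In flower RNA, fewer cells of a type and less transcript per cell cannot be told apart.

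Of the 27 genes, 15 exceeded the highest bacterial control on every array, 8 had a mean signal at or below it (29.6%, against 32.6% of all probe sets tested), and 3 did not exceed it on any array. Mean signals of 5 genes lay above 100 in every accession. These were the α-expansins EXPA4 (AT2G39700), EXPA8 (AT2G40610) and EXPA15 (AT2G03090), the β-expansin EXPB3 (AT4G28250) and XTH32 (AT2G36870). The list of root and root hair genes held 13 names, of which 7 were measured, and the means of 6 of these did not exceed the controls. They were the root hair expansins EXPA7 and EXPA18, the root-expressed XTH18, XTH20 and XTH21, and XTH26, known from root hairs. XTH19, known from growing roots and hypocotyls, was the exception, with a median signal of 46.5 over accessions. The median of EXPA18 over accessions (20.2) also lay above the controls, although its mean (16.4) did not.

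**Figure D1:**
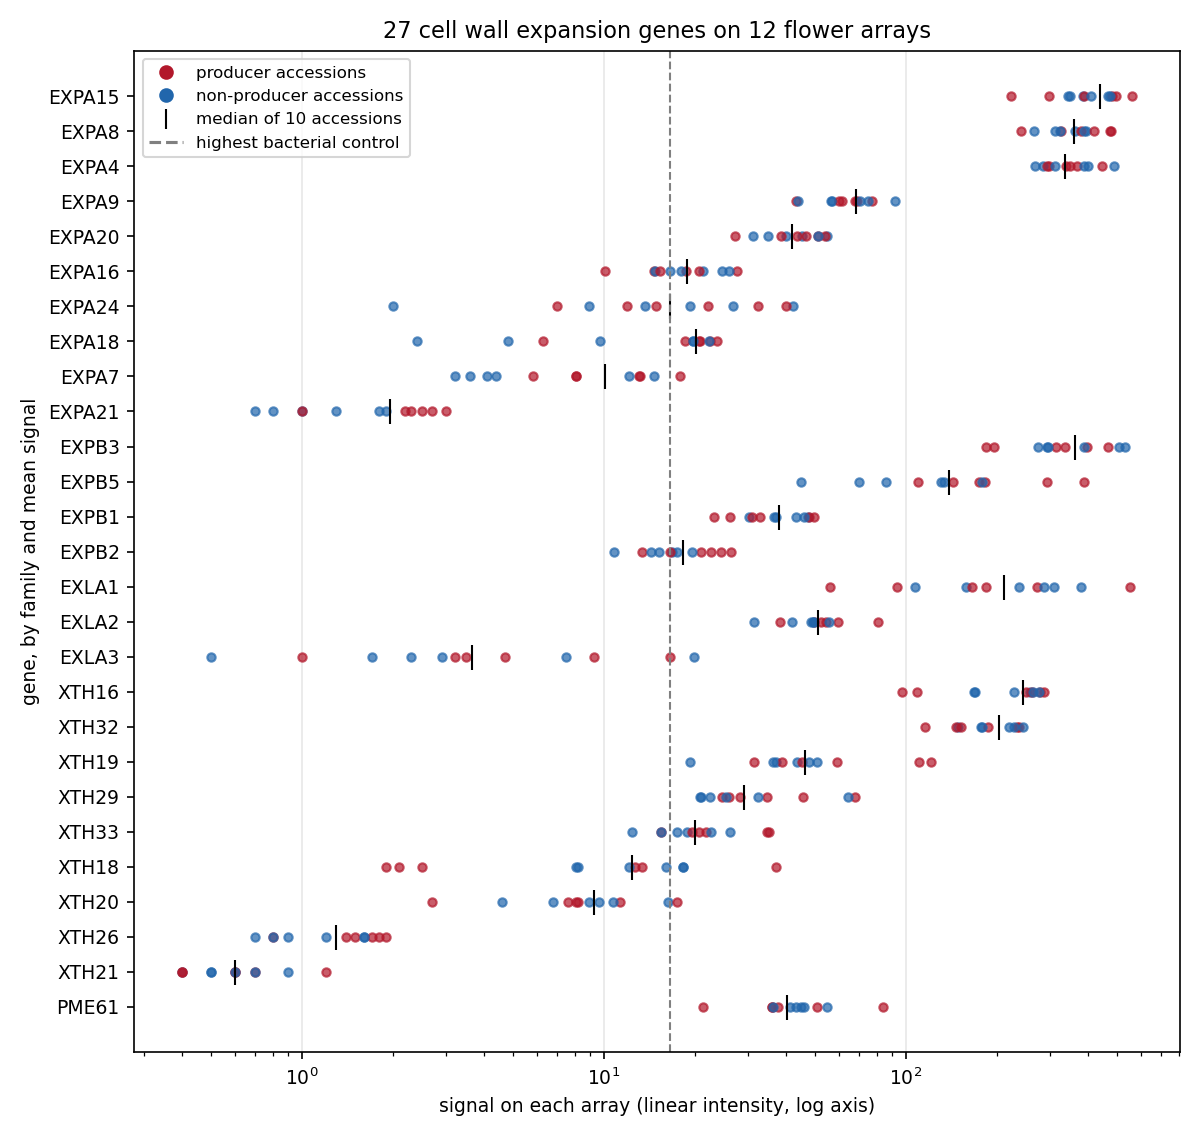
Signal of each of the 27 genes (rows, grouped by family) on the 12 arrays, on a log axis in linear intensity units, with producer accessions in red, non-producer accessions in blue, the median accession as a tick and the highest bacterial control (16.6) as a dashed line. Both colours are mixed along most rows, and XTH21, XTH26 and EXPA21 lie left of the dashed line on every array.

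The first question was how far these genes vary over the 10 accessions. The range of a gene was taken as the difference between its highest and lowest accession mean on the scale log2(signal + 16), where the added 16 damps the noise of dim probe sets. The median range of the 27 genes was 0.84, against 0.67 for all probe sets. A range of at least 1, that is 2-fold, was found for 11 genes (40.7%), against 18.4% of all probe sets, and the count was 9 without the second C24 array and 10 without Sap and Stw. Among the 8 genes with a mean signal above 100, 4 had such a range, against 22.6% of probe sets of that signal. These are counts without a test, and they depend on the added constant, with 19 genes at a constant of 1 (56.1% of all probe sets) and 5 at 64 (5.31%).

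Of the 3 α-expansins with signals above 100, EXPA8 had a range of 0.59, EXPA4 of 0.70 and EXPA15 of 0.88, on either side of the median over all probe sets of that signal (0.69). EXPA8 had a signal of 240.8 and 475.3 on the C24 arrays, 266.3 and 394.5 on the Col-0 arrays, and between 312.1 in Sap and 476.8 in Da elsewhere. The duplicates of C24 thus spanned nearly the whole range of the series. EXPA4, which is expressed in pollen tubes, lay between 267.0 in Ws and 444.8 in Da with a median of 336 over accession means. EXPA15 had 344.9 and 387.0 in Col-0, 389.1 and 223.0 in C24, 298.2 in RLD and 561.2 in Da, the highest value. EXPA9 and EXPA20, also α-expansins, stayed within 43.2 to 91.7 and 27.1 to 54.6 over the 12 arrays.

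β-Expansins and expansin-like genes included those with the widest ranges. EXPB5 (AT3G60570, chromosome 3), a β-expansin of pollen, had a signal of 174.7 and 388.0 on the C24 arrays, 183.1 in Cvi, 293.6 in Da, 143.3 in Rsch and 109.5 in RLD. Among non-producers it had 69.7 and 44.9 in Col-0, 130.8 in Ler, 133.4 in Ws, 85.7 in Sap and 178.2 in Stw. Both Col-0 arrays lay below those of every other accession, and the highest accession mean was 5.12 times the lowest. EXLA1 (AT3G45970), an expansin-like gene whose wall-loosening activity is not established, had 270.6 and 550.8 in C24, 93.6 in Cvi, 56.2 in Da, 166.0 in Rsch and 184.5 in RLD. In non-producers it had 107.4 and 157.5 in Col-0, 308.2 in Ler, 286.5 in Ws, 236.7 in Sap and 379.2 in Stw. Da and Cvi were therefore the lowest and C24 and Stw the highest accessions, with a ratio of 7.31 between the extreme means and a range of 2.56.

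EXPB3, a β-expansin, had its lowest signals on both C24 arrays, 196.3 and 184.1. The other accessions lay between 272.8 in Ler and 506.8 in Sap, and the Col-0 duplicates, with 292.4 and 531.0, differed by more than the median pair of accessions. EXLA2, an expansin-like gene known for its effect on susceptibility to Botrytis, lay between 31.5 on a Col-0 array and 80.9 in Rsch. EXLA3 exceeded the bacterial controls in Ler only, with 19.8, equalled them in Cvi with 16.6 and was at or below 9.3 elsewhere. EXPB1 and EXPB2, the remaining β-expansins, ranged from 23.1 in Da to 49.6 in Cvi and from 10.8 in Stw to 26.3 in Rsch.

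Of the XTH genes, XTH16 (AT3G23730) stood out by 2 low arrays. Its signal was 96.8 in Da and 109.1 on the second C24 array, whereas the first C24 array had 248.9 and the remaining arrays lay between 167.9 in Ler and 286.9 in RLD. XTH19 (AT4G30290) had 120.6 in Cvi and 110.6 on the second C24 array, with 39.0 on the first, and between 19.2 in Ws and 59.1 in Da elsewhere. Its immediate neighbour on chromosome 4, XTH18, had 37.1 on the second C24 array, where both genes were thus high. In Cvi, where XTH19 was at its highest, XTH18 had 1.9. That value lay far below the bacterial controls and close to 2.1 in Rsch and 2.5 in Da, so the order of these 3 accessions is not resolved. XTH32 lay between 115.2 on a C24 array and 244.5 in Ws, and XTH29 had 64.1 in Stw and 67.9 on the second C24 array, against 20.8 to 45.7 on the others. XTH33, an XTH held at the plasma membrane, had 34.7 and 35.2 in C24 and between 12.4 in Sap and 26.1 in Ler elsewhere, so that C24 did not overlap with any other accession. PME61, an enzyme known from the fibres of the stem, ranged from 21.2 in Cvi to 83.6 on the second C24 array, with 50.9 on the first.

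**Figure D2:**
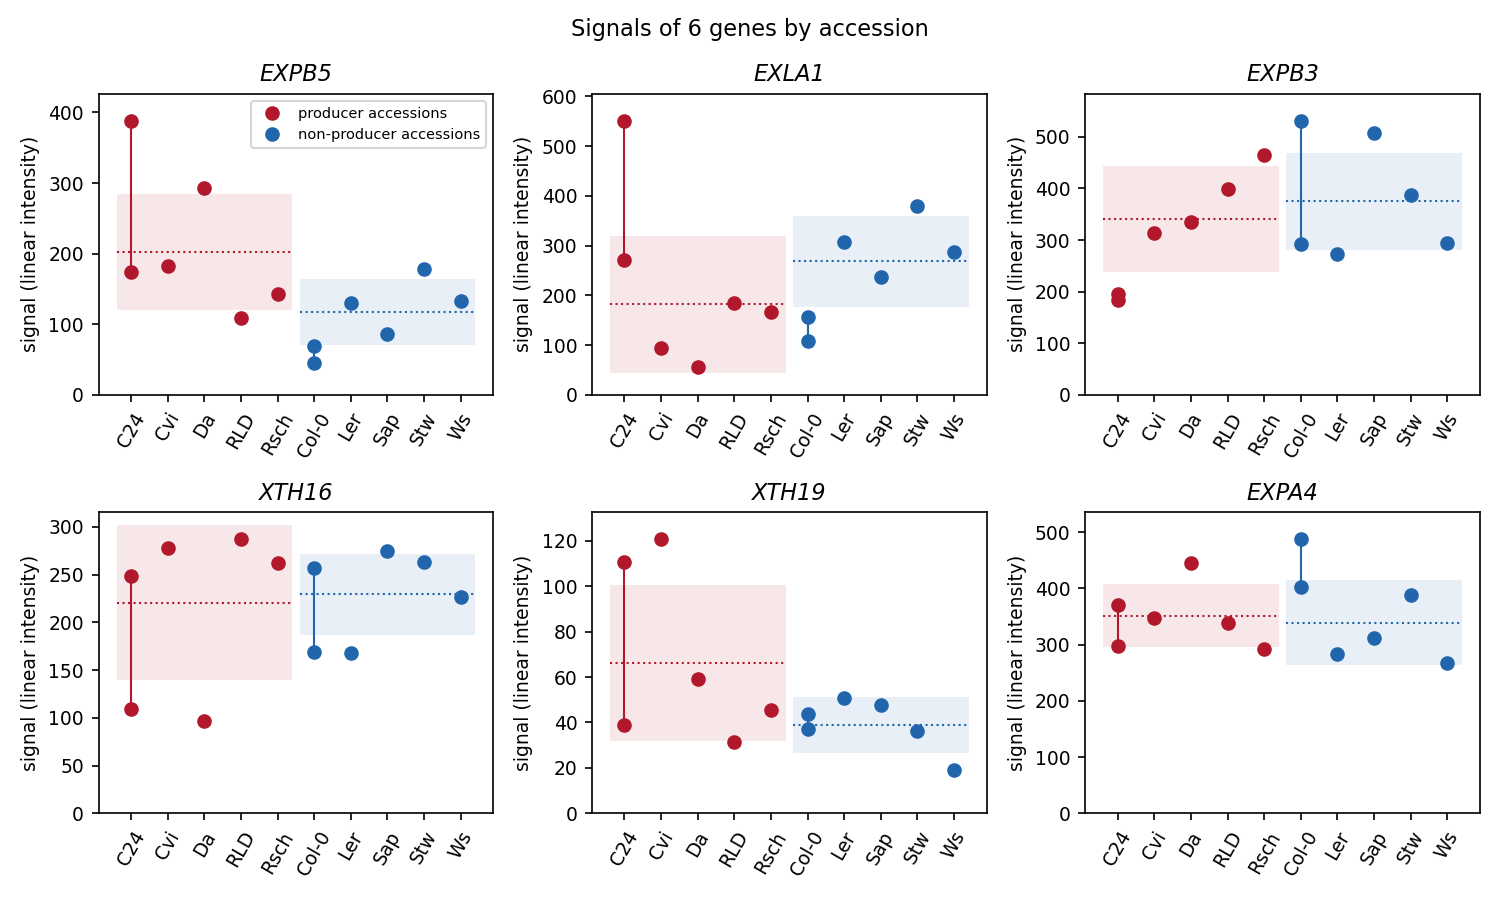
Signal (linear intensity) of EXPB5, EXLA1, EXPB3, XTH16, XTH19 and EXPA4 by accession, with 1 point per array, a line between the duplicates of C24 and of Col-0, and the mean (dotted) and SD over 5 accession means (shaded) of producers in red and non-producers in blue. The shaded bands overlap in all 6 panels, and the C24 duplicates lie far apart for EXPB5, EXLA1, XTH16 and XTH19.

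Counted by accession, Cvi held the highest mean for 6 of the 27 genes, C24 and Da for 5 each, and Ws the lowest for 6. Some of these extremes lay far below the bacterial controls, such as XTH26 in Cvi (1.9) and EXPA21 and EXPA7 in Ws (0.7 and 3.2). The share over all probe sets was not computed, and C24 and Col-0 are means of 2 arrays. These counts therefore show no trait particular to the 27 genes. Departures of at least 2-fold from the median accession were few. Da had EXPB5 above it (1 gene, against 0.848% of all probe sets) and EXLA1 and XTH16 below it (2 genes, against 0.387%). In Cvi, XTH19 lay above (1 gene, against 0.491%) and EXLA1 below (1 gene, against 0.759%), and in Col-0 EXPB5 lay below (1 gene, against 0.156%). The other 7 accessions had no such gene.

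The duplicates set the precision of these comparisons. Between the C24 arrays, EXPB5 and XTH19 were at least 2-fold higher and XTH16 at least 2-fold lower on the second, that is 3 of 27 genes against 3.57% of all probe sets. Between the Col-0 arrays 0 genes differed this far, against 0.722%. The median absolute log2 difference of the 27 genes was 0.36 between the C24 arrays (0.23 for all probe sets) and 0.23 between the Col-0 arrays (0.19 for all). For 6 genes, namely EXPA7, EXPA16, EXPA24, EXLA3, XTH32 and XTH33, the median difference over the 64 pairs of arrays from different accessions exceeded both duplicate differences, and 26.0% of all probe sets did so. EXPB5, EXLA1 and XTH19 were not among them, because their C24 arrays lay further apart (1.08, 0.98 and 1.20 on the log2 scale) than the median pair of accessions (0.76, 0.82 and 0.44). The arrays titled RLD and Sap, which share an ecotype label, differed at least 2-fold for 1 of the 27 genes, EXPA24 with 40.0 and 2.0, against 2.58% of all probe sets.

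**Figure D3:**
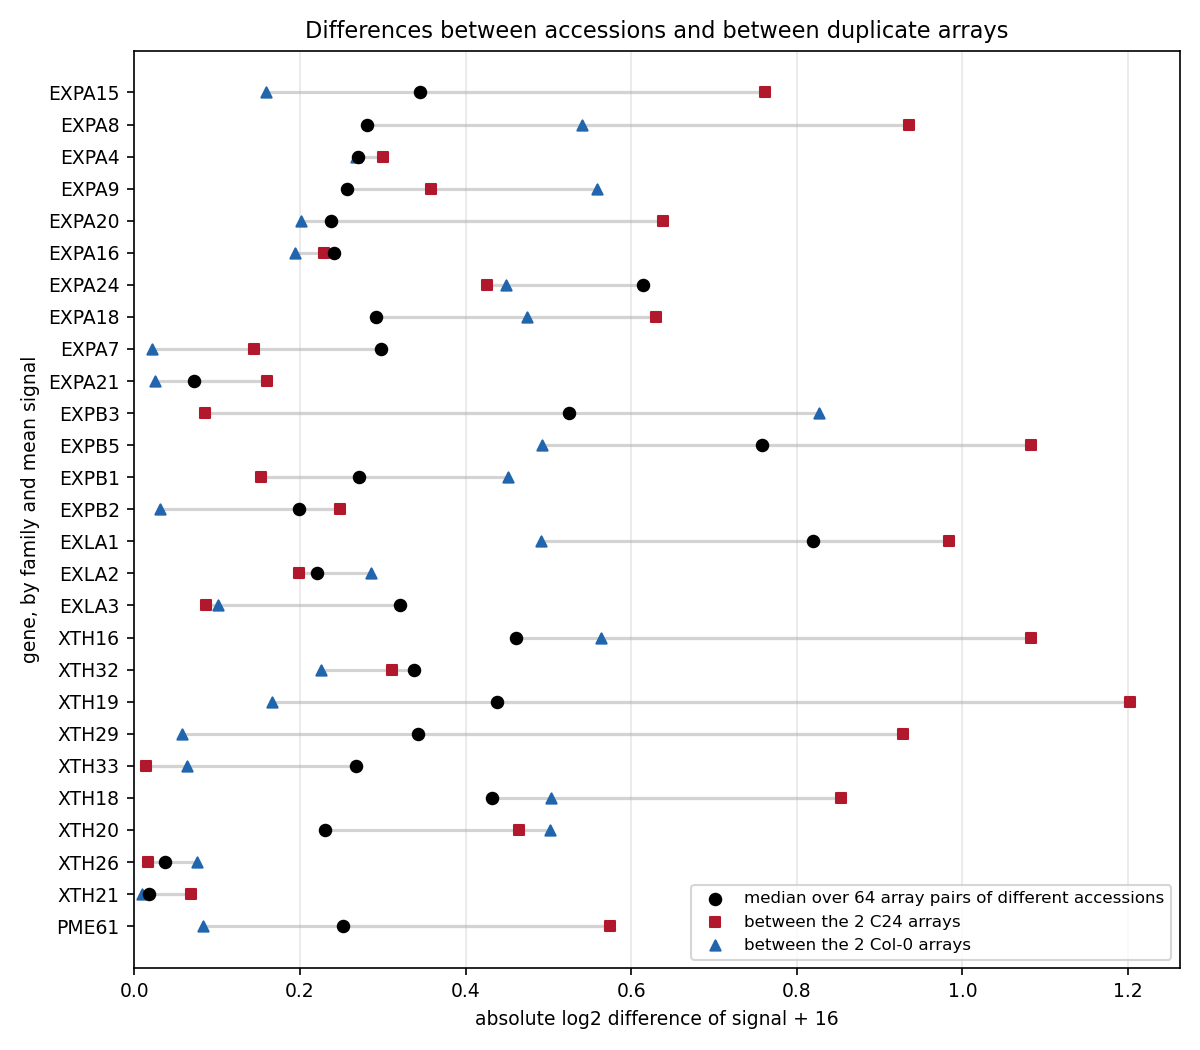
Absolute difference of log2(signal + 16) for each of the 27 genes between the C24 arrays (red squares), between the Col-0 arrays (blue triangles) and, as a median over 64 array pairs, between accessions (black circles). The black circle is the rightmost symbol for 6 genes, and for XTH19, EXPB5 and XTH16 the C24 duplicates reach 1.08 to 1.20.

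A moderated F-test in limma over the 10 accessions, whose residual spread comes from the duplicates alone, called 0 of the 27 genes at an adjusted p of 0.05 (0.0% of all probe sets were called). If the duplicates hold the same RNA, its p-values set the accessions against the spread between hybridizations only. At an unadjusted p under 0.05 there were 3 genes, against 8.51% of all probe sets, and without Sap and Stw also 3. They were EXLA3 (unadjusted p = 0.00455, adjusted p = 0.397), EXPA7 (unadjusted p = 0.0317, adjusted p = 0.543) and EXLA1 (unadjusted p = 0.0361, adjusted p = 0.561). The first 2 had means below the bacterial controls, and EXPA7 lay between 3.2 in Ws and 17.8 in Cvi. The count was 1 without either of the Col-0 arrays, 5 without the first and 6 without the second C24 array. EXPA24 (unadjusted p = 0.0506) and EXPB5 (unadjusted p = 0.0786) followed. EXPA24 had 42.4 and 26.8 in Col-0, 7.0 and 14.9 in C24, 40.0 in RLD, 32.3 in Rsch and 22.1 in Cvi, while the other accessions lay between 2.0 in Sap and 19.3 in Ws.

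The main split of the study asked whether transcripts differ between saiginol producers and non-producers. With 1 mean per accession, limma called 0 of the 27 genes at an adjusted p of 0.05 (0.0149% of all probe sets were called). The log2 difference was positive, that is higher in producers, for 17 genes and negative for 10, against 46.5% positive over all probe sets, and the medians were 0.03 for the genes and -0.01 for all. At an unadjusted p under 0.05 there were 2 genes, both higher in producers, against 7.06% of all probe sets (2.63% in that direction). EXPB5 averaged 202 ± 82.2 over producers and 117 ± 46.8 over non-producers (SD, n = 5 accessions each), with a log2 difference of 0.69, a standard error of 0.30, an unadjusted p of 0.0418 and an adjusted p of 0.706 from limma. RLD and Rsch lay within the range of the non-producers, and Ler, Ws and Stw within that of the producers. Without Sap and Stw the difference of EXPB5 was 0.80 (adjusted p = 0.916), and 1 of the 27 genes had an unadjusted p under 0.05.

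EXPA21 was the other gene, and the only one whose producers and non-producers did not overlap (1.2% of all probe sets). Its means were 2.0 to 2.7 in the 5 producers and 0.7 to 1.9 in the 5 non-producers, all below the bacterial controls, with a log2 difference of 0.09 and an adjusted p of 0.706 from limma. On single arrays the groups overlapped, because the first C24 array had 1.0, and with that array alone for C24 the groups of accession means overlapped too. Next in order were EXPB2 (20.9 ± 4.99 against 15.4 ± 3.25) and XTH19 (66.2 ± 34.4 against 38.9 ± 12.4), with log2 differences of 0.23 and 0.50 and adjusted p-values of 0.752 and 0.753 from limma (means ± SD, n = 5 accessions each). EXPA18 had 12.4 to 23.6 in producers and 2.4 to 22.3 in non-producers, a log2 difference of 0.37 (adjusted p = 0.760 from limma). These differences moved with single accessions and with the added constant. XTH19 had 0.29 without Cvi, EXPA18 had 0.22 without Ler, and EXPB2 had 0.14 without Sap and Stw (unadjusted p = 0.345). With constants of 1 and 64, the differences were 0.41 and 0.10 for EXPB2, 0.64 and 0.30 for XTH19 and 0.90 and 0.14 for EXPA18. Without Sap and Stw, XTH19 had 0.57, EXPA18 had 0.39 and EXPA21 had 0.09.

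EXLA1 had the most negative difference, with 182 ± 138 in producers and 269 ± 91.8 in non-producers, a log2 difference of -0.72, a standard error of 0.41 and an adjusted p of 0.760 from limma. By accession mean, C24 alone among the producers lay above every non-producer (410.7). This rests on its second array (550.8), since the first (270.6) lay below Stw, Ler and Ws. Without C24 the difference was -1.05 (unadjusted p = 0.0122, adjusted p = 0.627), without Da it was -0.43, and without Sap and Stw it was -0.57. Group means and SDs overlapped for the α-expansins with signals above 100. Producers and non-producers had 352 ± 56.4 and 339 ± 75.3 for EXPA4, and 429 ± 120 and 414 ± 57.2 for EXPA15. EXPA8 had the largest difference of these, with 392 ± 58.0 and 343 ± 31.4 (log2 difference 0.17, adjusted p = 0.806 from limma).

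C24 and Col-0, the accessions crossed for the introgression lines of the study and the only ones with 2 arrays, were also compared directly. They are part of the producer and non-producer groups, so both comparisons share these arrays. If the duplicates hold the same RNA, the p-values of this comparison measure the spread between hybridizations only. In limma 0 of the 27 genes passed an adjusted p of 0.05 (0.0149% of all probe sets did). At an unadjusted p under 0.05 there were 6 genes, against 8.33% of all probe sets, 4 of them higher in C24 (EXPB5, EXLA1, XTH33 and EXLA3, against 3.19%) and 2 lower (EXPA24 and EXPB3, against 5.14%). The log2 difference was positive for 16 genes and negative for 11, with 50.6% positive over all probe sets. In 13 genes the arrays of C24 and Col-0 did not overlap, against 35.9% of all probe sets, 8 of them higher in C24 (17.7% of all) and 5 lower (18.2%).

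EXPB5 had the largest difference, with 174.7 and 388.0 in C24 against 69.7 and 44.9 in Col-0, a log2 difference of 1.94 with a standard error of 0.40 and an adjusted p of 0.300 from limma. EXLA1 followed with 1.46, a standard error of 0.38 and an adjusted p of 0.401. Its direction was thus opposite to that between producers and non-producers. Leaving out the second C24 array, whose EXPB5, XTH16 and XTH19 signals differed from those of the first, the log2 differences were 1.40 for EXPB5 and 0.97 for EXLA1. EXPB3 was lower in C24 (log2 difference -0.99, standard error 0.30, adjusted p = 0.475), and the log2 difference was -0.58 without the second Col-0 array. EXPA24 was also lower in C24 (log2 difference -0.91, adjusted p = 0.441), with both C24 arrays below the bacterial controls. XTH33 had a log2 difference of 0.58 (adjusted p = 0.528), from 34.7 and 35.2 in C24 against 18.9 and 17.4 in Col-0, and EXLA3 lay below the controls on all 4 arrays (log2 difference 0.23, adjusted p = 0.578). For such dim signals the size rests on the added constant, and with constants of 1 and 64 the log2 difference was -1.62 and -0.39 for EXPA24, 0.91 and 0.27 for XTH33 and 1.33 and 0.07 for EXLA3.

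**Figure D4:**
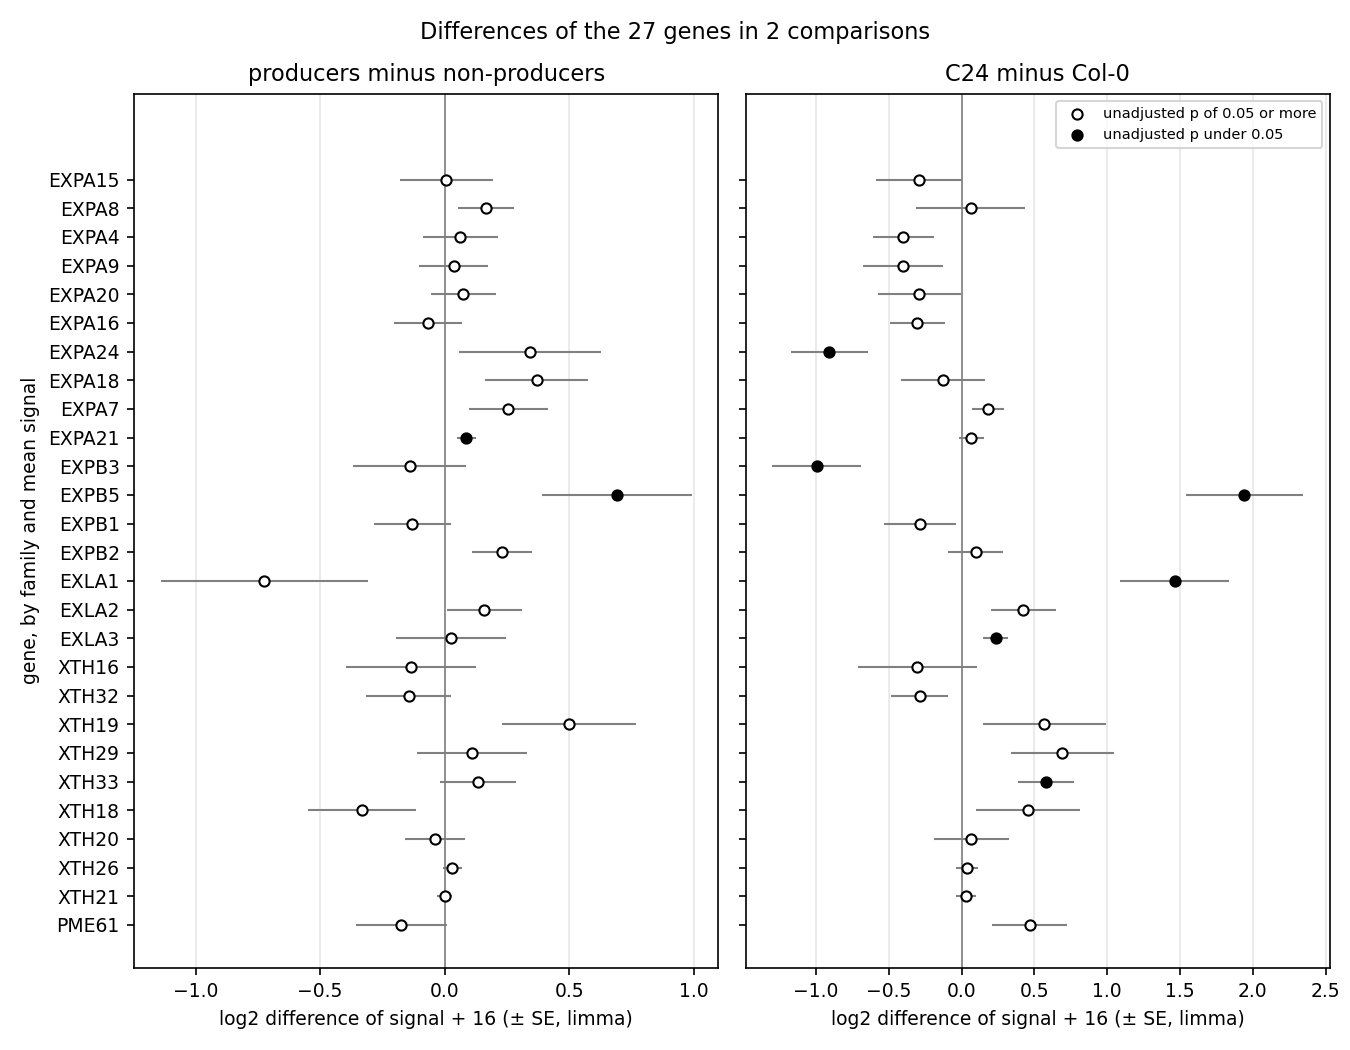
Difference of log2(signal + 16) of each of the 27 genes with its standard error from limma, for producers minus non-producers (left) and C24 minus Col-0 (right), with filled symbols where the unadjusted p was under 0.05. Filled symbols mark 2 genes on the left and 6 on the right, and EXLA1 lies left of 0 in the first comparison and right of 0 in the second.

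Markers of other tissues of the flower differed between arrays. Of 29 listed markers of pollen and pollen tubes 12 were measured, 0 of them were at 0 on average, and 3 had means at or below the bacterial controls. Their summed signal ranged from 239.0 to 505.7 over the accession means of producers and from 228.3 to 382.8 in non-producers. On single arrays it was 578.0 on the second C24 array, 505.7 in Da, 438.9 and 326.7 in Col-0, 296.3 on the first C24 array and 228.3 in Sap. EXPB5 was highest on the 2 arrays with the most pollen marker signal, Da and the second C24 array, but lowest in Col-0, whose first array had the third highest marker sum. Between the C24 arrays, on which EXPB5 had 174.7 and 388.0, the markers changed to unlike degrees. BUPS1, a receptor kinase of pollen tubes and the marker of highest mean signal, had 57.2 and 143.2. AGL65 had 35.2 and 40.4, AGL104 had 24.2 and 29.9, and ACT12, the only one not higher on the second array, had 30.5 and 29.9.

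XTH16 was the gene that followed the pollen markers most closely, in the opposite direction. Over the 10 accession means, its log2 signal had a Pearson's r of -0.871 with the log2 summed marker signal (two-sided permutation test, p = 0.00079, adjusted p = 0.0213 over the 27 genes). Spearman's rho was -0.770 (permutation p = 0.0133, adjusted p = 0.348). Without C24 and Da, the accessions farthest from the median marker sum, r was -0.727 over 8 accessions. The 2 pairs of duplicates differed in this respect. From the first to the second C24 array the marker sum rose from 296.3 to 578.0 and XTH16 fell from 248.9 to 109.1. Between the Col-0 arrays both fell, from a marker sum of 438.9 and an XTH16 signal of 257.1 to 326.7 and 168.7. The Col-0 pair thus departed from this relation. The part of pollen content in the signals of XTH16 and EXPB5 was not tested further. EXPB1 followed with an r of -0.771 (permutation p = 0.00893, adjusted p = 0.121), which was -0.330 without C24 and Da. For EXPA4 and EXPB5, the 2 measured genes of the pollen list, r was 0.562 (permutation p = 0.0925, adjusted p = 0.416) and 0.460 (permutation p = 0.185, adjusted p = 0.421), and without C24 and Da it was 0.440 and -0.339.

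**Figure D5:**
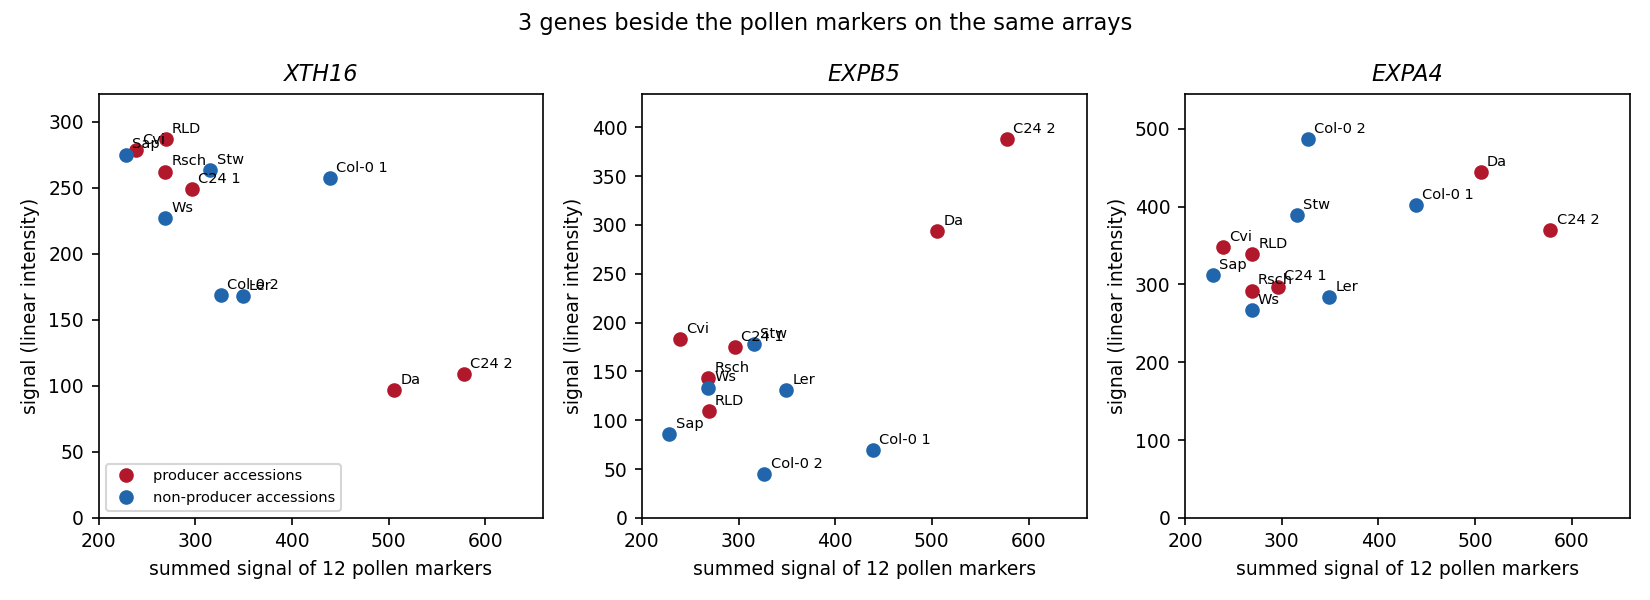
Signal (linear intensity) of XTH16, EXPB5 and EXPA4 on the 12 arrays against the summed signal of 12 pollen markers on the same array, with producers in red and non-producers in blue. Da and the second C24 array combine the highest marker sums, 505.7 and 578.0, with the lowest XTH16 and the highest EXPB5 signals, and the Col-0 arrays have the lowest EXPB5 signals.

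The other marker lists were thinly covered. The tapetum markers A9 and AMS summed to between 282.1 in Rsch and 965.6 on the first C24 array. A9 made most of this sum (mean signals of 572 and 104), and the 2 did not always go together. In Ler, for example, A9 was at its highest with 899.2 and AMS had 40.3. The green tissue marker RCA lay between 1877.4 on the first Col-0 array and 3085.2 in Ler. The 4 measured markers of carpel and ovule summed to 233.2 on the second C24 array and 454.7 in Da, the extremes of the series. Relations of XTH16 with these other marker lists were not tested. Of the listed wall genes outside these families, CSLC4, which makes the glucan backbone of xyloglucan, was the one measured of 10, with signals from 85.4 in Ws to 424.0 on the second C24 array. ADPG1, a polygalacturonase that cuts pectin, was the one of 14 and lay between 19.7 in Sap and 59.7 on the second C24 array. FER and THE1, receptor kinases that sense the wall, were the 2 measured of 6, with 241.6 and 65.8 in RLD as their lowest signals and 418.6 in Sap and 120.9 on the first Col-0 array as their highest. None of these 4 genes passed an adjusted p of 0.05 in any of the 3 limma comparisons, and at an unadjusted p under 0.05 there was CSLC4 in the F-test over accessions only. The list of cellulose synthesis and that of arabinogalactan peptides had 0 measured genes.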

How the data were processed

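The authors hybridized floral RNA to ATH1 arrays and deposited linear signal intensities, 1 per probe set and array, scaled to a common trimmed mean (highest and lowest 2% left out). The summarization software is not given in the sources used here, and the number of arrays limits the precision. Of 22810 probe sets, 13513 were named for 1 gene, 503 for several and 8794 for none by the platform's gene table, and the 13436 that matched 1 RefSeq locus were tested. RefSeq was used for names and gene order only.

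Signals were taken as log2(signal + 16) and fitted in limma 3.58.1 (R 4.3.3) with a prior variance that follows mean signal, and p-values were adjusted by Benjamini-Hochberg over all 13436. The F-test used 12 arrays, producers against non-producers 10 accession means, and C24 against Col-0 4 arrays. The added constant shrinks differences between dim signals. Relations with markers used 100000 permutations.

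The genes, lists and alternatives were chosen with earlier results of these data known. Genes named were the 3 of highest mean signal per family, the 10 widest ranges, the 5 smallest p-values per comparison and those whose groups did not overlap. EXPA9, EXPA16, EXPA20, XTH20, XTH21 and XTH26 fall outside this rule and were named after their values were seen. Alternatives covered other constants, scalings, filters and priors, and omission of arrays.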

Additional observations from a re-analysis of the deposited data

Results flagged for a closer look

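Over 54 groups of 5 accessions (27 genes in producers and in non-producers), the gap of 1 accession to the nearest other was unusually wide, relative to the range of the group, in 2. Chance gives about 1 in 20 such groups, so 2 of 54 is not more than chance gives. Among the producers, EXPA18, a root hair expansin, had a mean signal of 12.4 in C24, with 18.5 on the first array and 6.3 on the second, against 20.7 to 23.6 in the other 4 (gap 0.741 of the range). Among the non-producers, XTH29 had 64.1 in Stw against 20.8 to 32.3 in the other 4 (gap 0.734 of the range). Stw is 1 of the 2 arrays whose title and ecotype label disagree.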

How the results depend on the processing

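In limma, 0 of the 27 genes passed an adjusted p of 0.05 in each of the 3 comparisons under every alternative run, and the smallest adjusted p of any of them was 0.297 in the F-test (lowest 25% of mean signals left out), 0.574 for producers against non-producers (without Da) and 0.104 for C24 against Col-0 (with the replicate block below). All 12 log2 differences examined kept their sign. Priors, filters and the replicate block leave a log2 difference unchanged by construction, so only the other alternatives could have changed a sign. At an unadjusted p under 0.05, the F-test had 3 genes, 1 with a prior variance without a trend, and 1 to 6 without 1 array. Producers against non-producers had 2, and 1 with a constant of 64, without the lowest 25%, without a trend or with a robust prior. The count was also 1 without probe sets marked _s_at or _x_at, without Sap and Stw, or with 12 arrays and accession as a random block. With the first Col-0 array alone it was 1 beside the first C24 array alone and 3 beside the second. With the second Col-0 array alone it was 2 beside either C24 array. Without 1 accession it was 0 to 3. C24 against Col-0 had 6, and 2 to 8 without 1 array, where the lone array was assumed to vary like the pair. The 1 gene whose groups did not overlap, EXPA21, became 0 with a constant of 1 or without the lowest 25%, where it was filtered out. It also became 0 with the first C24 array alone beside either Col-0 array. The count stayed 1 without any 1 accession. Leaving an accession out cannot make separate groups overlap, so this is no check of EXPA21 and shows only that no further gene joined it. Genes with a range of at least 2-fold numbered 11, 19 with a constant of 1, 5 with 64, and 9 to 12 without 1 array, an alternative chosen after seeing the data. The cause of these shifts was not tested.

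Col-0 and C24 share the experiment numbers 1 and 2. Over all probe sets, deviations of same-numbered arrays correlated at 0.11, and with 2 pairs the numbers were not taken to pair the arrays. With the number as a replicate block, 0 genes were called and 4 had an unadjusted p under 0.05. The block could not change the log2 differences, because each number holds 1 array of either accession. Another probe set per locus could not be tried, since each gene had 1. Signals near those of the bacterial controls limit what can be said of 8 of the 27 genes, and 8 accessions rest on 1 array.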

Other observations

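A few genes of these families carry other names in the annotation and were chosen after their values were seen. EXGT-A3, a xyloglucan endotransglucosylase, had signals between 109.6 in Ws and 197.3 in Sap. ATPMEPCRB, a pectin methylesterase, lay between 29.3 in Rsch and 73.0 in Sap, and EXLB1, an expansin-like B gene, between 11.4 in RLD and 43.1 in Stw.

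Some of the 27 genes lie close together. XTH18 and XTH19 are adjacent loci, EXLA1 and EXLA3 have 1 locus between them, and EXPA21 and EXPA24 have 4. As a description over the 10 accession means, which share arrays and scaling, the Pearson correlations of log2 signals were -0.431, -0.210 and 0.260 for these pairs. Across the pairs of the 19 genes with a mean signal above the bacterial controls, the highest was 0.812 for EXPA9 and EXPA16 and the lowest -0.797 for EXPB3 and XTH33. The probe set whose pattern over the 10 accessions was most like that of EXPB5 was AT3G07840 (Pearson's r = 0.935), with accession means between 22.9 and 194.5. For EXLA1 it was AT3G18640 (r = 0.920), with means between 44.6 and 69.0. Each was picked as the highest r among all tested probe sets with a mean above the bacterial controls. With only 10 accessions such a search can reach high values without any link, and none was tested.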
